A study of Homo sapiens with 12 samples.

Results

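The tissue inhibitors of metalloproteinases (TIMPs) are 4 small secreted proteins that block the catalytic zinc site of matrix metalloproteinases and related enzymes, and RECK is a membrane-anchored glycoprotein that restrains some of the same enzymes at the cell surface. The 5 genes were taken by their symbol in the platform annotation, which gave 7 of the 47323 probes on the array and 5 of the 20046 genes named there. TIMP2 and RECK had 2 probes each, and TIMP1, TIMP3 and TIMP4 had 1 each. PANC-1, an established human cell line derived from a pancreatic ductal carcinoma, supplied total RNA for 12 bead arrays (Illumina), labelled as biotinylated cRNA. On 6 control arrays (called wild type in the titles) the cells held an integrated pLKO.1 puro lentiviral vector, and on 6 knockdown arrays they held pLKO.1 with a short hairpin RNA against human TIMP1. Both groups grew in DMEM with fetal calf serum and puromycin, so the controls also carry a vector and its selection. The labels do not say whether either line is 1 clone or a pool, nor that replicates 1 to 6 are separate cultures, so the p-values measure only the spread between these samples.

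Each TIMP pairs an inhibitory amino-terminal domain with a carboxy-terminal domain that sets its partners. TIMP1 inhibits many secreted matrix metalloproteinases but is a weak inhibitor of most membrane-type ones, and it also signals through cell-surface partners. TIMP2 both inhibits membrane-type enzymes and helps to activate pro-MMP2 at the cell surface, TIMP3 stays bound to the matrix and inhibits ADAM17 and several ADAMTS enzymes, and TIMP4 is the member with the narrowest tissue range. RECK restrains MMP9, MMP14 and ADAM10 and is a co-receptor for WNT7 ligands, and oncogenic RAS signalling lowers its transcription. In RefSeq's assembly GRCh38.p14, TIMP1 (X chromosome) lies inside SYN1, TIMP3 (chromosome 22) inside SYN3 and TIMP4 (chromosome 3) inside SYN2. TIMP2 (chromosome 17) contains CEP295NL, and RECK is on chromosome 9.

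The start regions of 3 members are shown because transcription factors known to act on them were measured on the same arrays. Each covers 250 bases before to 50 after the RefSeq gene start, 5′ to 3′ on the gene's strand (GRCh38.p14). Capitals mark the AP-1 variant TGAGTAA, the ETS core AGGAAG and the GC box GGGCGG, each on either strand.
TIMP1, chrX:47582186-47582485, plus strand: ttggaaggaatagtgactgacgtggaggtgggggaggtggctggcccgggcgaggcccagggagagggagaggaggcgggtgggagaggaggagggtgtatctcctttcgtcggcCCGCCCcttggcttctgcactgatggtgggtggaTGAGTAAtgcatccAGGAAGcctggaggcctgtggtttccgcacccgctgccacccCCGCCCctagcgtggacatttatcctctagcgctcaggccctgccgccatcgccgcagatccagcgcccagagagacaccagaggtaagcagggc
TIMP3, chr22:32801455-32801754, plus strand: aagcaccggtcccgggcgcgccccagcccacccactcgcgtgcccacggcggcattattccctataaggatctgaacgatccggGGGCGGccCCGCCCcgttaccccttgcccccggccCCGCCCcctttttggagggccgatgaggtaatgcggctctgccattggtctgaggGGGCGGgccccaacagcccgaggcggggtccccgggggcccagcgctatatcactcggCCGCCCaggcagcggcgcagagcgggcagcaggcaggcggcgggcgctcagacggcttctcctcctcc
RECK, chr9:36036663-36036962, plus strand: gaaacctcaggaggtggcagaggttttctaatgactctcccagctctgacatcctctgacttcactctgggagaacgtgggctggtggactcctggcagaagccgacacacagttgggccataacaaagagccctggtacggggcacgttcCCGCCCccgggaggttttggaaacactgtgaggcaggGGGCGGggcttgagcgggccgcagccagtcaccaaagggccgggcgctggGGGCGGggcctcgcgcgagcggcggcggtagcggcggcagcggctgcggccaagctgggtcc
The TIMP1 region held 1 AP-1 variant, 1 ETS core and 2 GC boxes, and no consensus AP-1 motif (TGANTCA). The TIMP3 region held 5 GC boxes and the RECK region 3, with neither the AP-1 variant nor the ETS core in these letters. The TIMP4 region, not printed, held 1 ETS core and 1 GC box. Among 35116 RefSeq start regions of the same length, 2.57% held the AP-1 variant, 7.71% the consensus AP-1 motif, 33.6% the ETS core and 45% a GC box, with 15.8% holding at least 3 GC boxes and 5.14% at least 5. A match is a description of the letters and not a measured site.

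The detection p compares a probe with the negative controls of its array, and a probe counted as detected if 6 or more of the 12 arrays had a value under 0.05. All of TIMP1, TIMP2, TIMP3 and TIMP4 had a probe detected on all 12 arrays, and neither RECK probe was detected on any. In all, 16495 probes were detected, and those with a gene symbol covered 9780 named genes. Single control arrays detected 15681 to 16565 probes and single knockdown arrays 15898 to 17680, with the highest numbers on knockdown 2 and knockdown 6. The mean was 16160 on control and 16861 on knockdown arrays (exact two-sided permutation p = 0.0498, n = 6 per group). Because this number differed with the group, a fit that holds it as a covariate cannot fully separate its part from that of the group. Of the PANC-1 markers, the keratin genes KRT7, KRT8, KRT18 and KRT19, EPCAM and VIM were all detected. Of 17 markers of fibroblasts, endothelium, leukocytes, acinar cells and islets, 10 were at background on all arrays and 3 (PECAM1, CD68 and PRSS1) passed detection. The mean level of these 3 lay between 9.87 and 10.13 on control and between 9.78 and 10.07 on knockdown arrays. That mean hides PRSS1, a trypsinogen gene of acinar cells with near-identical relatives, which ranged from 11.49 to 11.63 on control and from 11.20 to 11.44 on knockdown arrays, with no overlap. Its log2 fold change was -0.19 ± 0.05 (SE, n = 6 per group; limma adjusted p = 0.118), while PECAM1 had 0.04 and CD68 had -0.04 on its brighter probe. Of all detected probes, 0.546% had the knockdown wholly below the control, as PRSS1 did. The other acinar markers, CPA1 and AMY2A, were detected on 0 and at most 1 of the 12 arrays. The part of these markers in the results was not tested.

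The first question was how far the hairpin's own target was lowered. TIMP1 (probe ILMN_1711566) was lower on every knockdown array than on any control array after normalisation. Its normalised log2 intensity was 13.86, 13.79, 13.71, 13.73, 13.76 and 13.64 on control arrays 1 to 6. On knockdown arrays 1 to 6 it was 13.63, 13.61, 13.57, 13.54, 13.49 and 13.50. The gap between the groups was the 0.01 step between control 6 and knockdown 1, smaller than the distance between most neighbouring arrays within a group. The log2 fold change was -0.19 ± 0.04 (SE, n = 6 per group; limma adjusted p = 0.101), a linear change of -12.5% with a 95% confidence interval from -18.0% to -6.64%. The exact two-sided permutation p was 0.00216, the smallest that 6 arrays against 6 can give. The acinar marker PRSS1 differed by the same -0.19. The adjusted p of TIMP1 does not pass 0.05, and in the same test 50 of the 16495 detected probes passed (0.303%), with 0.0485% called lower and 0.255% called higher in the knockdown. Complete separation with the knockdown below the control occurred in 0.546% of detected probes, and with the knockdown above it in 1.02%. In bulk RNA, fewer cells making TIMP1 and less TIMP1 RNA per cell cannot be told apart.

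The residual TIMP1 signal was high in both groups. Before normalisation the signal was 14107.8 ± 1161.1 on the control arrays (SD, n = 6) and 12114.5 ± 785.8 on the knockdown arrays (n = 6). On that scale the groups overlapped, since control 6 read 12620.1 and knockdown 1 read 13185.1. The probe stood at 74.6% to 86.7% of the brightest signal on each control array, and at 67.0% to 78.7% on the knockdown arrays. Signals near the top of the range can be compressed by the scanner, and whether this limits the measured difference was not tested. With scaling by the median of all probes in place of quantile normalisation, the median of the detected probes was 0.12 higher on the knockdown arrays. On this scale the TIMP1 log2 fold change was -0.12, which is -0.24 after subtracting that shift (exact permutation p = 0.119 for the former).

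**Figure D1:**
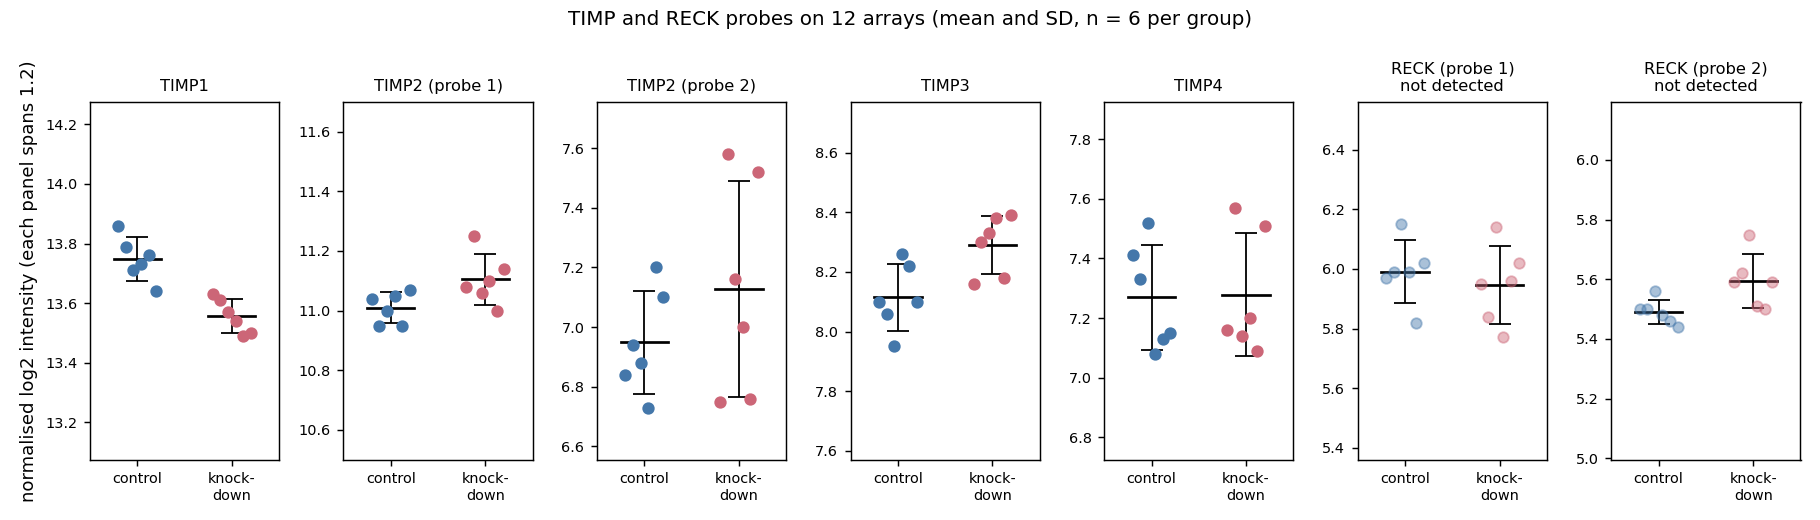
Normalised log2 intensity of the 7 probes on each of the 12 arrays. Points are arrays, bars the mean and SD of 6 arrays, and every panel spans the same range around its own centre. The TIMP1 groups are separate (13.64 and above against 13.63 and below), the groups of the other probes overlap, and the pale RECK points were not above background on any array.

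The second question was whether the other inhibitors differed when TIMP1 was targeted. None of the other detected probes passed the test over all probes, and the estimates for TIMP2 and TIMP3 were above 0. TIMP3 (ILMN_1701461) read 8.10, 8.06, 7.95, 8.26, 8.22 and 8.10 on control arrays 1 to 6. It read 8.16, 8.30, 8.33, 8.38, 8.18 and 8.39 on knockdown arrays 1 to 6. Knockdown 2, 3, 4 and 6 lay above all controls, while knockdown 1 and 5 lay within their range. The log2 fold change was 0.18 ± 0.06 (SE, n = 6 per group; limma adjusted p = 0.24; exact two-sided permutation p = 0.0216), and the 95% confidence interval of the linear change ran from 2.94% to 23.8%. The size depended on the background correction, at 0.11 without it.

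TIMP2 was measured by a bright and a dim probe. On the brighter one (ILMN_1721876) the controls read 11.04, 10.95, 11, 11.05, 10.95 and 11.07, and the knockdown arrays 11.08, 11.25, 11.06, 11.10, 11 and 11.14. Knockdown 1, 2, 4 and 6 exceeded all controls, with knockdown 2 the highest. The log2 fold change was 0.09 ± 0.05 (SE, n = 6 per group; limma adjusted p = 0.361), or 6.80% on the linear scale (95% confidence interval -0.21% to 14.3%). It was 0.05 without knockdown 2 and 6, and also 0.05 when each array's detected-probe number entered the fit. Median scaling gave 0.24, and 0.12 after subtracting the shift of the median.

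The dimmer TIMP2 probe (ILMN_1749078) stood close to background, with detection p between 0.00519 and 0.0442. Its controls had a lowest value of 6.73, a median of 6.91 and a highest of 7.20, and its knockdown arrays 6.75, 7.08 and 7.58. Knockdown 2 and 6, at 7.58 and 7.52, were far above the other knockdown arrays, which read between 6.75 and 7.16. The log2 fold change was 0.18 ± 0.15 (SE; limma adjusted p = 0.608), and it became -0.03 without those 2 arrays. The interval of the linear change, -9.69% to 41.8%, contained that of the brighter probe.

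TIMP4 (ILMN_1663399) was also near background, with detection p between 0.00519 and 0.0364 on the 12 arrays. The controls ranged from 7.08 through a median of 7.24 to 7.52, and the knockdown arrays from 7.09 through 7.18 to 7.57. The groups overlapped almost entirely, and the highest knockdown arrays were again knockdown 2 and 6. The log2 fold change was 0.01 ± 0.10 (SE, n = 6 per group; limma adjusted p = 0.973). Its sign had no stability: it was -0.12 without knockdown 2 and 6, and -0.04 with cyclic loess. The interval of the linear change was -13.9% to 17.7%, so differences of the size seen for TIMP1 lie inside it.

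RECK gave no level above background. Its brighter probe (ILMN_1688630) had signals between 177.2 and 211.2, with detection p between 0.103 and 0.279. The other probe (ILMN_2067269) had signals between 139.3 and 174.5, with detection p between 0.284 and 0.799. No fold change is given, since both groups were below the detection threshold on all arrays. The signal of the second probe was 146.1 ± 5.1 (SD, n = 6) on control and 159.1 ± 10.3 (n = 6) on knockdown arrays, values that cannot be separated from the negative controls. RECK RNA was therefore not measurable in either group with these 2 probes, which does not show that it is absent.

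**Figure D2:**
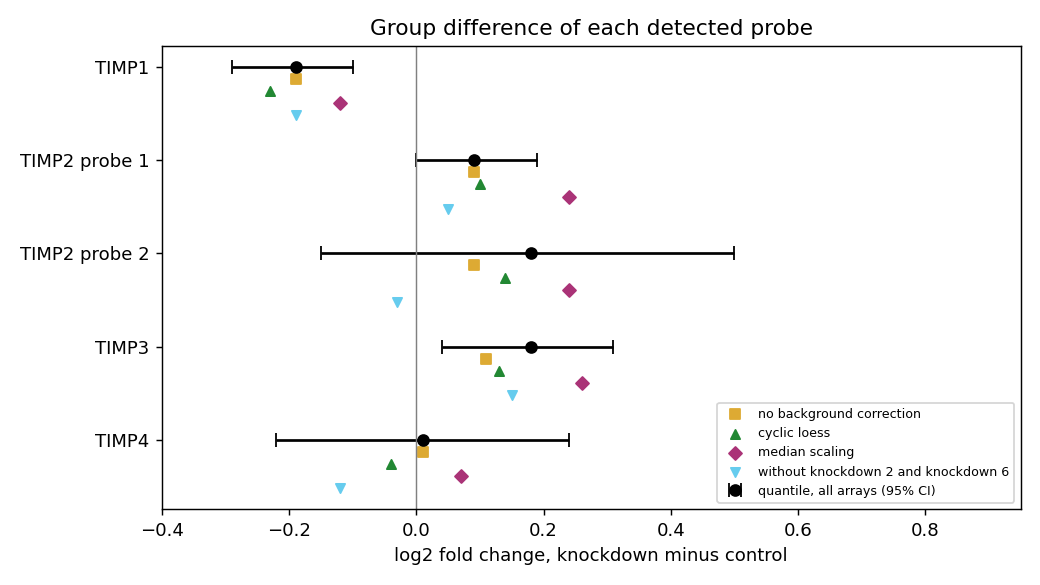
Log2 fold change (knockdown minus control) of the 5 detected probes. Black points and bars are the quantile-normalised estimate with its 95% confidence interval, and coloured marks are the same estimate under 4 other settings. TIMP1 lies below 0 in all 5, from -0.23 to -0.12, and TIMP2 probe 1 and TIMP3 lie above it. TIMP2 probe 2 and TIMP4 cross 0 without knockdown 2 and 6, and TIMP4 also with cyclic loess.

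Because TIMP1 was lower and the TIMP2 and TIMP3 estimates were higher, the difference between them within an array was also followed, a quantity that a single scaling factor per array does not move, though quantile normalisation and background correction can. Log2 TIMP1 minus log2 TIMP2 (brighter probe) was 2.81, 2.83, 2.71, 2.69, 2.81 and 2.57 on control arrays 1 to 6, and 2.55, 2.35, 2.50, 2.44, 2.49 and 2.36 on the knockdown arrays. All knockdown arrays lay below all controls, as they did for TIMP1 alone, with control 6 and knockdown 1 again the nearest. How often TIMP1 minus any other detected probe separates the groups was not counted. The mean shift was -0.29, which is a change of -18.1% in the ratio of the 2 intensities. Without knockdown 2 and 6 the shift was -0.24, and over the other settings, which included leaving out each array, it lay between -0.36 and -0.27.

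For TIMP3 the same difference was 5.63 ± 0.13 (SD, n = 6) on control and 5.27 ± 0.13 (n = 6) on knockdown arrays. Control 4 and knockdown 1 met at 5.47, and the other 5 knockdown arrays lay at or below 5.31. The mean shift was -0.37, a change of -22.5% in the ratio, with values from -0.41 to -0.30 in the 19 alternatives. These genes were chosen with their own differences already known, so no p is given for the shifts. They restate the differences of the single probes, none of which passed the test over all probes. The shifts do not show which of the pair moved.

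The third question was whether the other members followed the TIMP1 level among arrays of 1 group. Over 12 relations (6 probes in 2 groups, 6 arrays each), none had an adjusted p under 0.05 by an exact permutation test, and the smallest adjusted p was 0.817, by Spearman's rho. For TIMP2 (brighter probe) Pearson's r with TIMP1 was -0.31 in the controls (rho = -0.49; exact permutation p = 0.556 and 0.356, n = 6; adjusted p = 0.883 and 0.952). In the knockdown it was 0.41 (rho = 0.31; exact permutation p = 0.426 and 0.564, n = 6). For TIMP3, r was 0.05 in the controls (rho = -0.09; exact permutation p = 0.947 and 0.919, n = 6) and -0.29 in the knockdown (rho = -0.43; exact permutation p = 0.558 and 0.419, n = 6). Without the 2 arrays farthest from the TIMP1 median, replicates 1 and 6 of the controls and 1 and 5 of the knockdown, r was -0.75 and 0.48 for TIMP2 and 0.22 and -0.94 for TIMP3. These rest on 4 arrays each. For the other TIMP2 probe, TIMP4 and both RECK probes r lay between -0.37 and 0.43, with the RECK values drawn from signals at background.

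The sign of these relations depended on the scaling. With median scaling, r of TIMP3 with TIMP1 in the knockdown became 0.91 (rho = 0.83; exact permutation p = 0.00556 and 0.0583, n = 6; adjusted p = 0.0667 for r), or 0.60 without the 2 farthest arrays. For TIMP2 it became 0.60 in the controls and 0.89 in the knockdown (rho = 0.54 and 0.83; exact permutation p = 0.204 and 0.0292 for r, n = 6; adjusted p = 0.408 and 0.117), or 0.65 and 0.64 without the 2 farthest arrays. On that scale the median of the detected probes itself differed among arrays, from 8.58 to 8.82 on the controls and from 8.62 to 8.98 on the knockdown arrays. In the knockdown, r with this array median was 0.92 for TIMP1, 0.98 for TIMP2 (brighter probe) and 0.94 for TIMP3. In the controls it was 0.81, 0.95 and 0.65 (n = 6 in each group). The part of the array median in the relations with TIMP1 was not tested. For TIMP1 and the number of detected probes per control array, r was then 0.90 (rho = 0.89; exact permutation p = 0.0458 and 0.0333, not adjusted, n = 6), with r = 0.86 without the 2 farthest arrays. In the knockdown the same r was 0.62 (rho = 0.66; exact permutation p = 0.208 and 0.175, n = 6), or 0.22 without the 2 farthest arrays. With quantile normalisation it was 0.52 in the controls and -0.53 in the knockdown (exact permutation p = 0.303 and 0.279). No relation of another member with TIMP1 had an adjusted p under 0.05 for r under either scaling.

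**Figure D3:**
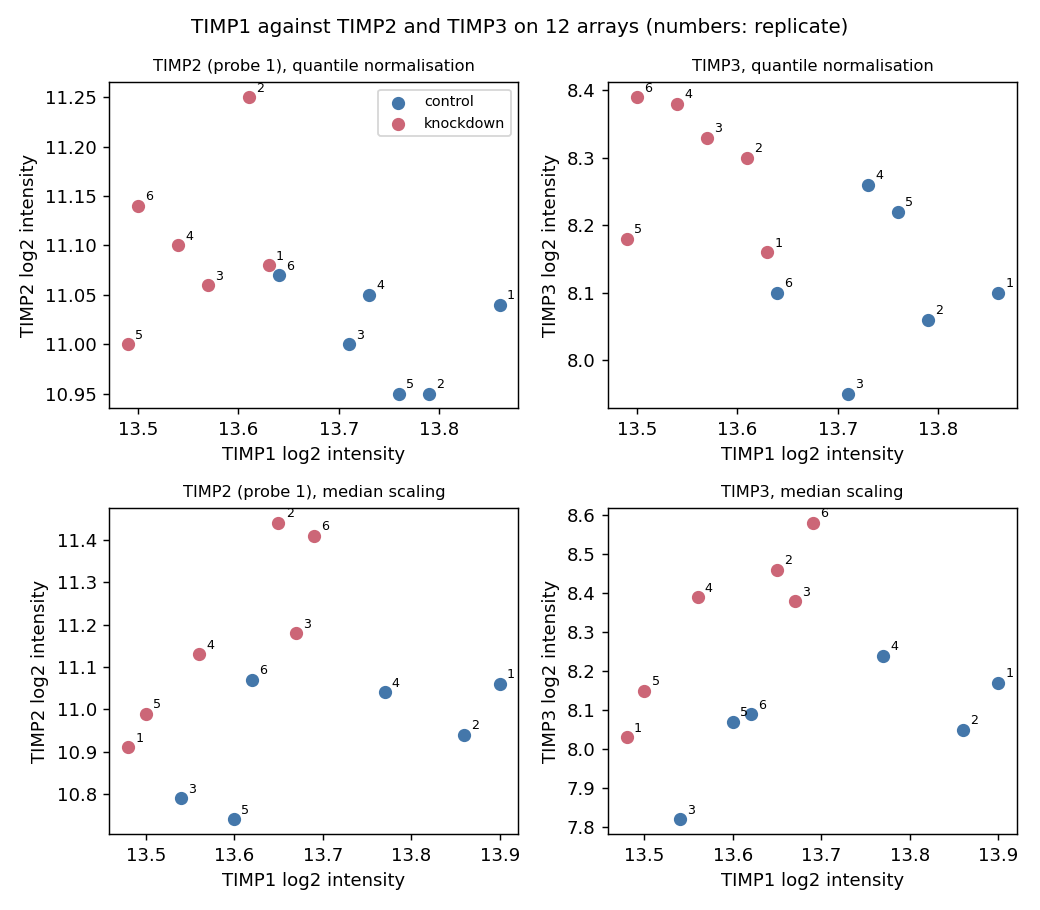
TIMP2 (brighter probe, left) and TIMP3 (right) against TIMP1, as log2 intensity on the 12 arrays, with quantile normalisation above and median scaling below. Numbers are replicates. Within the knockdown group, r of TIMP3 with TIMP1 is -0.29 above and 0.91 below.

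The genes most like TIMP1, TIMP2 (brighter probe) and TIMP3 among arrays were found by the correlation of residuals from the group means over 12 arrays, among 9754 other detected genes. They are the highest of many values and carry no test. For TIMP1 they were PIR, a nuclear iron-binding protein (r = 0.92), CCDC9B (r = 0.90) and STX1A, a syntaxin of vesicle fusion (r = 0.87). STX1A also differed between the groups, with a log2 fold change of -0.34 (limma adjusted p = 0.0214), while PIR had -0.13 (limma adjusted p = 0.2). For TIMP2 they were TINAGL1, a secreted matrix-associated protein (r = 0.91), the Golgi SNARE gene GOSR1 (r = 0.90) and the kinase gene JAK1 (r = 0.90). For TIMP3 they were the zinc transporter gene SLC39A6 (r = 0.89), TRAPPC11, of a vesicle-tethering complex (r = 0.86), and ADM5 (r = 0.85). No member of the family was among these 9 genes, and TIMP4 and RECK were not searched. The residuals of TIMP1 had r = 0.09 with TIMP2 and -0.08 with TIMP3, and those of TIMP2 (brighter probe) and TIMP3 had r = 0.26. The highest values within the family were those of TIMP4 with TIMP2, at 0.56 for the brighter and 0.55 for the dimmer TIMP2 probe, and the dimmer TIMP2 probe had 0.43 with TIMP3. All rest on the same 12 arrays, which share their depth and handling.

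Metalloproteinases, among them enzymes that these inhibitors act on, were followed as a list of 40 genes, of which 12 were detected. The list was not limited to enzymes known to be inhibited by a TIMP or by RECK. The gelatinases MMP2 and MMP9 and the membrane-type enzyme MMP14 were not above background on any array. The collagenase MMP1, a classic TIMP1 target, was detected on all 12 arrays, with controls from 12.10 to 12.30 (median 12.21) and knockdown arrays from 12.16 to 12.31 (median 12.21). Its log2 fold change was 0.02 ± 0.05 (SE; limma adjusted p = 0.829). Of the 12 genes 1 rose, none fell and 11 did not pass, against 0.389% of 9780 genes called in either direction (0.337% higher and 0.0511% lower). The median log2 fold change of the list was 0.02, the same as over all genes.

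The gene that rose was ADAMTS9, a secreted protease that cleaves proteoglycans. Its controls ranged from 7.45 to 7.80 (median 7.59) and its knockdown arrays from 8.06 to 8.61 (median 8.34), with no overlap (log2 fold change 0.76 ± 0.10, limma adjusted p = 0.0169). Of all detected probes, 1.02% had the knockdown wholly above the control. The rise was 0.63 without knockdown 2 and 6 (adjusted p = 0.0684) and 0.63 with detected probes as a covariate (adjusted p = 0.366). It also lost the call without control 1, control 3, knockdown 3, knockdown 4 or knockdown 5 (adjusted p between 0.0512 and 0.0576), with the log2 fold change between 0.74 and 0.79. Without background correction it was 0.47 and passed (adjusted p = 0.00966). ADAM10, a sheddase restrained by TIMP1, TIMP3 and RECK, had -0.11 ± 0.05 (SE; limma adjusted p = 0.313). ADAM17, the sheddase that TIMP3 inhibits, had 0.18 ± 0.08 (SE; limma adjusted p = 0.343) on its brighter probe and 0.00 ± 0.08 on the other, and ADAM19 had 0.11 ± 0.06 (adjusted p = 0.38).

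Partners of the inhibitors gave no call. Of 17 binding partners of TIMPs and RECK, 16 had a probe named here, 7 were detected and none passed. CD63, a surface partner of TIMP1, had none and was not analysed here. APP, the amyloid precursor protein, which ADAM10 cleaves, ranged from 11.77 to 11.87 on control and from 11.60 to 11.75 on knockdown arrays. Its groups did not overlap, and the log2 fold change was -0.14 ± 0.03 (SE; limma adjusted p = 0.131) on the brightest of 3 probes. Of all detected probes, 0.546% had the knockdown wholly below the control. The remaining probes for APP had -0.08 and 0.04. FZD4, the Frizzled receptor that works with RECK in WNT7 signalling, had 0.29 ± 0.14 (SE; adjusted p = 0.371), and WNT7B had 0.04. ADGRA2, which forms the WNT7 receptor complex with RECK, was at background on all arrays, as RECK was. ITGB1 and CD44, both surface partners of TIMPs, had -0.01 each on their brightest probe, and LRP5, a WNT co-receptor, had -0.06. The second probes of CD44 and LRP5 read otherwise, at -0.14 and 0.25 (adjusted p = 0.238 and 0.264). LRP1, the endocytic receptor that clears TIMPs, was at background on all arrays.

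Other modulators of metalloproteinases were mostly at background. Of 14 such genes, a list of inhibitors that also holds the enhancers PCOLCE and PCOLCE2, 3 were detected and none passed. FETUB, a fetuin, had -0.24 ± 0.17 (SE; limma adjusted p = 0.528), and PCOLCE2, a procollagen C-proteinase enhancer, and BST2 (tetherin) had 0.01 each. The broad plasma inhibitor A2M and TFPI2, a serine protease inhibitor, were not above background on any array.

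Regulators with known roles at TIMP1 or RECK were nearly all detected, 22 of the 24 with a probe named here, and none passed. OSMR, the oncostatin M receptor, whose ligand induces TIMP1, ranged from 8.26 to 8.45 on control and from 8.42 to 8.83 on knockdown arrays. Its log2 fold change was 0.25 ± 0.06 (SE; limma adjusted p = 0.138), and it passed without knockdown 1 (0.30, adjusted p = 0.0324). Among the AP-1 genes FOSB had 0.15 ± 0.06 (SE; limma adjusted p = 0.261), FOS had 0.32 ± 0.15 (adjusted p = 0.366), JUN had 0.07 and FOSL1 had -0.06. RUNX1 had 0.17 ± 0.07 (SE; limma adjusted p = 0.281), EGR1 had -0.09 ± 0.04 (adjusted p = 0.314), and ETS1 and ETS2, which bind the ETS core, had 0.04 and -0.09. SP1 and SP3, which bind the GC box, had 0.06 and -0.02, with 0.18 on the second SP3 probe (adjusted p = 0.419). The median of the list was 0.02, as over all genes.

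**Figure D4:**
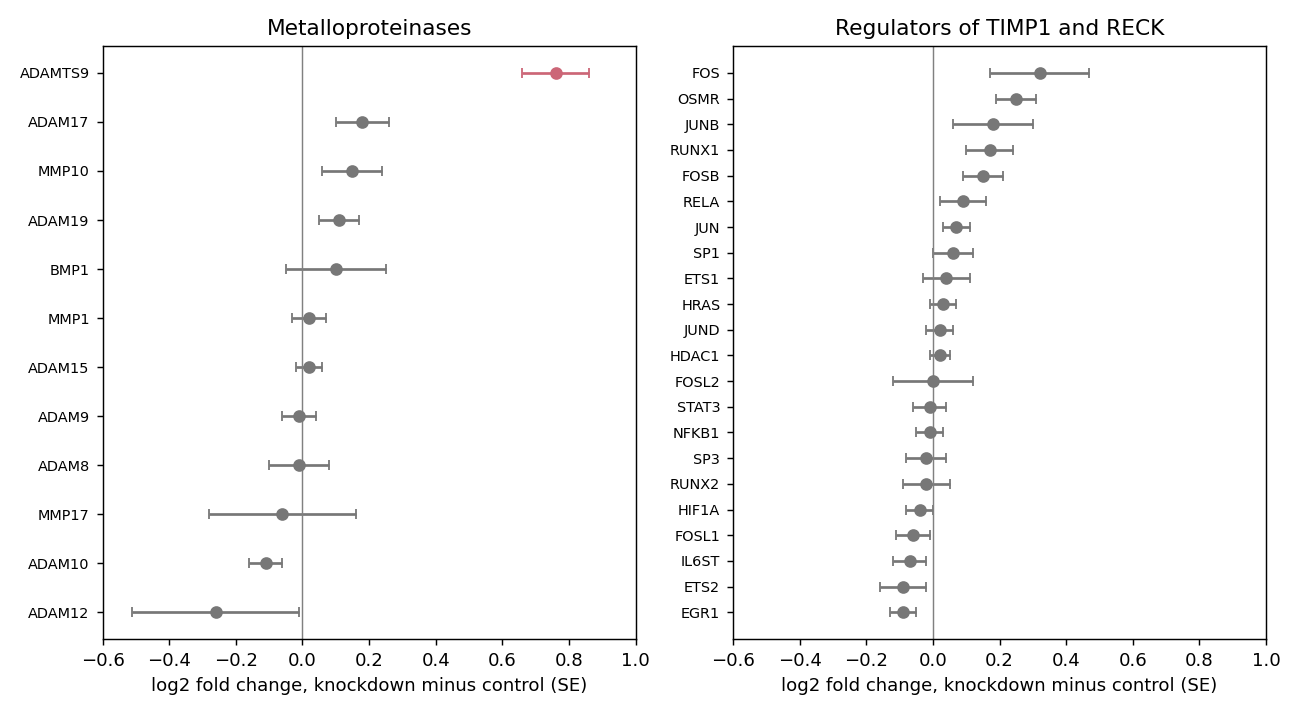
Log2 fold change (knockdown minus control) with its standard error for the 12 detected metalloproteinase genes (left) and the 22 detected regulators (right), n = 6 arrays per group. The 1 gene past the threshold, ADAMTS9 at 0.76, is in red, and all others lie between -0.26 and 0.32.

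The genes that share a locus with a TIMP gave no call either. SYN1, the synapsin gene that surrounds TIMP1 on the opposite strand, ranged from 6.97 to 7.67 on control and from 7.27 to 7.90 on knockdown arrays (log2 fold change 0.12 ± 0.13, limma adjusted p = 0.691). ARAF, a kinase gene next to SYN1, had 0.04 ± 0.05 (SE; adjusted p = 0.773). SYN3, around TIMP3, was at background on all arrays, and SYN2, around TIMP4, was detected on at most 3. Neither detected neighbour of TIMP1 had a lower mean on the knockdown arrays, and a relation of these neighbours with the TIMP1 difference was not tested.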

How the data were processed

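The members and gene lists were chosen with earlier results of these data known. Per the file headers, the deposited non-normalised table gives each probe's signal intensity (linear) and detection p-value on every array. The export step was not given in the sources used here. A second deposited table holds the authors' own intensity values, which matched quantile-normalised signal to within 3.33e-06. Per the submitters' processing notes limma was used, with no step named.

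Signals were background corrected, quantile normalised and put on a log2 scale with neqc of limma 3.58.1 (R 4.3.3, offset 16), taking the negative controls' distribution from the detection p-values. The offset shrinks the fold changes of dim probes, and quantile normalisation removes shifts common to all probes. Probes detected (p under 0.05) on at least 6 arrays were tested with lmFit and eBayes on the group term over 12 arrays, with Benjamini-Hochberg adjustment over all 16495 and a threshold of 0.05, two-sided. Lists used the detected probe with the highest mean of each gene. Exact permutation tests used 924 assignments of arrays or 720 pairings. The fit was tested on simulated data.

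Symbols were updated through RefSeq's GRCh38.p14 gene table; of all probes 30113 had 1 symbol, 8 several and 17202 none here. Named genes were all members, in each list those past the threshold and up to 4 with the smallest p, and the 3 genes most like each of TIMP1, TIMP2 and TIMP3; other genes of the lists were named for their role after their values were seen. The number of arrays limits the precision. Alternatives are given in the closing section. Figures used matplotlib 3.10.9. Sequences are RefSeq's; 4 of the 5 members had an entry.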

Additional observations from a re-analysis of the deposited data

How the results depend on the processing

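TIMP1 kept its direction in 24 alternatives (-0.23 to -0.12) and passed the threshold in 2: with an intensity trend and robust fit (log2 fold change -0.19, limma adjusted p = 0.0249) and with a stricter filter, detection p under 0.01 on all 12 arrays (-0.19, adjusted p = 0.0449), where fewer probes were tested. Its adjusted p reached 0.517 with detected probes as a covariate, a number that itself differed between the groups. Leaving out each array gave a TIMP1 log2 fold change of -0.21 to -0.17. TIMP2 (brighter probe) and TIMP3 kept their direction in 24 and 23 alternatives and passed in none. The dimmer TIMP2 probe reversed to -0.03 without knockdown 2 and 6. TIMP4 reversed to -0.04 with cyclic loess, -0.05 with array weights, -0.12 without knockdown 2 and 6 and -0.13 with detected probes as a covariate, and ranged from -0.05 to 0.06 when 1 array was left out. Without knockdown 2 and 6, with detected probes as a covariate and with the strict filter, which dropped ADAMTS9, 0 metalloproteinase genes passed; leaving out 1 array gave 0 to 1, and 0 to 1 for the regulators. The shifts of TIMP1 relative to TIMP2 and TIMP3 kept their direction throughout.

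With median scaling, r with TIMP1 reversed to 0.60 for TIMP2 (brighter probe) in the controls, 0.90 for the dimmer TIMP2 probe in the knockdown, 0.91 for TIMP3 in the knockdown, and, at background, 0.37 and -0.12 for RECK. Without the 2 arrays farthest from the TIMP1 median it reversed to 0.49 and 0.10 for the dimmer TIMP2 probe, -0.31 for TIMP4 and -0.58 for the second RECK probe in the controls, and Spearman's rho was -0.09 for TIMP3 in the controls. The causes were not tested. The authors' values gave those without background correction. Same-numbered arrays of the groups correlated between -0.110 and 0.194 in their deviations, which does not settle whether the numbers pair the samples. With the replicate block TIMP1 had -0.19 (limma adjusted p = 0.147) and no call changed. Signals near background limit TIMP4, RECK and the dimmer TIMP2 probe.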

Other observations

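The members were also set against the number of detected probes per array, within each group of 6 arrays (14 relations). None had an adjusted p under 0.05 by an exact permutation test, and the smallest adjusted p was 0.447. The largest values of Pearson's r came from the dimmer TIMP2 probe and TIMP4. For the dimmer TIMP2 probe r was -0.78 in the controls (rho = -0.77; exact permutation p = 0.0806 and 0.103, n = 6; -0.57 without the 2 arrays farthest from the median) and 0.77 in the knockdown (rho = 0.77; exact permutation p = 0.0722 and 0.103, n = 6; 0.52 without 2 arrays). For TIMP4 in the knockdown r was 0.77 (rho = 0.71; exact permutation p = 0.0958 and 0.136, n = 6; 0.82 without 2 arrays). For TIMP1 it was 0.52 in the controls and -0.53 in the knockdown (rho = 0.49 and -0.43; exact permutation p = 0.303 and 0.279 for r, n = 6), or 0.65 and 0.40 without 2 arrays.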
